A study of Mus musculus with 8 samples.

Results

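Cav1 and Cav2, which encode caveolin-1 and caveolin-2, and Emp1 and Emp3, which encode epithelial membrane proteins, were followed as 4 of the 24940 genes measured in mouse macrophages. The members were picked by symbol with earlier results of these data known, among them the low Cav2 value in cells with the TMBIM6 hairpin without RANKL. Values of that comparison are therefore given for the 4 genes as a description, with no test. Which other values were in view is not recorded, so the tests in the remaining comparisons are no independent evidence of a pattern. RNA came from bone marrow-derived macrophages of C57BL/6 mice aged 6 to 8 weeks, grown with the macrophage growth factor M-CSF (30 ng/ml). Every culture behind the 8 libraries had a short hairpin, named NCsh or TMBIM6sh in the titles. The titles also state whether RANKL (100 ng/ml for 24 h), the cytokine that turns macrophages into osteoclasts, was present, while the treatment text is the same for all samples. The 4 groups were NCsh without RANKL, NCsh with RANKL, TMBIM6sh without RANKL and TMBIM6sh with RANKL, with 2 libraries each. The labels name 1 hairpin on each side and do not spell out NCsh, so loss of Tmbim6 and other effects of a hairpin cannot be told apart. The labels also do not say whether duplicates came from separate mice or cultures, and the p-values measure only the spread between these libraries.

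Caveolins are hairpin-shaped membrane proteins that coat caveolae, small flask-like pits of the plasma membrane rich in cholesterol. Caveolin-1 builds the coat together with cavin proteins, and caveolin-2 joins it in mixed oligomers and depends on caveolin-1 to leave the Golgi. The epithelial membrane proteins belong, with peripheral myelin protein 22 (Pmp22), to a small family of tetraspan proteins that influence adhesion, growth and blebbing of cells. EMP family proteins are also known to associate with the ATP-gated channel P2X7 of macrophages.

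Cav2 and Cav1 lie in tandem on the plus strand of chromosome 6 (mm10), Cav2 at 17281185 to 17289130 and Cav1 at 17306335 to 17341328, with 17204 bases between them. Emp1 lies on the same chromosome at 135362931 to 135383173 on the plus strand, and Emp3 on the minus strand of chromosome 7 at 45918023 to 45921426. The matching GENCODE transcripts of Cav1 and Cav2 have 3 exons each and those of Emp1 and Emp3 have 5 each. An antisense gene, Gm15581, runs through the region of both caveolin genes, but 0 GENCODE genes overlap the exons of the 4 transcripts. This matters because tags of both strands were counted. The 250 bases before the annotated start are printed for Cav2 and Emp1, which were both low with the TMBIM6 hairpin, and for Cav1, the neighbour of Cav2 that was not. Sequences are from RefSeq (GRCm38.p6, plus strand, 5′ to 3′). Capitals mark matches to the AP-1 motif TGANTCA, which reads the same on both strands.
Cav2, chr6:17280935-17281184: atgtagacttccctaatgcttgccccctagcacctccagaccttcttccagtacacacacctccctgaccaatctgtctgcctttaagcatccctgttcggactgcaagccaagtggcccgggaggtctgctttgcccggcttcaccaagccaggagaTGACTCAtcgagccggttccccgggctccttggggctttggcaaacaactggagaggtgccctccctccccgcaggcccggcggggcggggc
Cav1, chr6:17306085-17306334: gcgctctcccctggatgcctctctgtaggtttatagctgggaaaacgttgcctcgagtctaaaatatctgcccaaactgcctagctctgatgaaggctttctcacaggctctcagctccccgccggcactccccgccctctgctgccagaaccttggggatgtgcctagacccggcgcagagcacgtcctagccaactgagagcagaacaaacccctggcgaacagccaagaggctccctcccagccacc
Emp1, chr6:135362681-135362930: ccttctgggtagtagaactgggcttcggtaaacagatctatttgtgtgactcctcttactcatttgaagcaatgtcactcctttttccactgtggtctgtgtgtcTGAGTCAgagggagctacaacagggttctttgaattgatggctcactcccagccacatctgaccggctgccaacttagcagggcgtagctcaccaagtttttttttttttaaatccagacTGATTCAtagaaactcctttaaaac

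The AP-1 motif was present 1 time in the Cav2 window, with its first base 92 bases before the start, and 2 times in the Emp1 window, 145 and 25 bases before the start. It was absent from these letters in Cav1 and Emp3. Among the 32851 RefSeq windows of this length 6.75% hold it. The TATA box letters TATAAA, found in 12.4% of windows on either strand, occurred in Emp3 40 bases before the start and on the opposite strand of Cav1. The GC box GGGCGG, found in 32.7%, occurred once on either strand in Cav2 and in Cav1. CCAAT (33.8%) and the ETS core GGAAGT (19.7%) occurred in Cav2 only among the 4 windows, and the E-box CACGTG (6.02%) in 0 of them. The share of G and C was 62% in Cav2 and 59.6% in Cav1, against 44.4% in Emp1, 52% in Emp3 and a median of 52.4% over all windows. A match of letters describes the sequence and does not show that a factor binds there. AP-1, the motif marked above, was 1 of several searched, and a link of it to the levels of Cav2 and Emp1 was not tested.

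Each library held 25475000 to 28595000 tags. The 4 genes had 591 to 5194 tags per library. Tmbim6, the target of the hairpin, was at 330 and 334 RPKM (tags relative to exon length and to the tags of the library) in NCsh libraries without RANKL and at 11.1 and 11.7 RPKM in TMBIM6sh libraries. With RANKL it was at 309 and 321 against 10.0 and 10.5 RPKM. The 13 macrophage markers summed to 8410 to 11700 RPKM per library. With RANKL 6 of them fell in each hairpin state, among them the M-CSF receptor Csf1r (log2 -0.51 and -0.69, adjusted p = 9.15e-04 and 1.11e-04, limma), and between hairpins 2 were lower and 1 higher without RANKL and 4 lower and 1 higher with RANKL. Of all genes 3.98% and 6.89% fell with RANKL in NCsh and TMBIM6sh libraries, and 13.8% and 19.7% were lower between hairpins without and with RANKL. Among the osteoclast genes, 5 tested, Mmp9 rose and Atp6v0d2 fell with RANKL in both hairpin states. With the TMBIM6 hairpin likewise 1 was higher and 1 lower in each RANKL state. Nfatc1, Acp5 and Dcstamp, the others tested, did not pass in any comparison. Their log2 differences with RANKL in NCsh and TMBIM6sh libraries were 0.07 and -0.02, -0.02 and 0.20, and -0.29 and 0.44. Ctsk, the bone-degrading protease of mature osteoclasts, was at most at 0.0375 RPKM as a group mean. Markers of cell types known for abundant caveolin were as follows: 13 stromal and smooth muscle markers summed to 6.25 to 7.56 RPKM per library and 9 endothelial markers to 4.0 to 6.16 RPKM. Of the endothelial, adipocyte and epithelial lists, Adipoq, Epcam, Emcn and Cldn5 were listed at 0 throughout. Others were low but above 0 in every library, such as Cdh5 (0.447 to 0.927 RPKM), Kdr (0.291 to 0.717 RPKM) and Cdh1 (0.142 to 0.476 RPKM). The share of such cells was not measured. Of the tested stromal markers 0 of 4 passed in any comparison, and of the endothelial ones 1 of 2, Pecam1 between hairpins with RANKL (log2 -0.53, adjusted p = 0.0219, limma), which macrophages can also express. Of the adipocyte and epithelial list Fabp4 and Lpl, both also macrophage genes, were tested, and both fell with RANKL in each hairpin state. Between hairpins Fabp4 was lower without and with RANKL (log2 -0.42 and -0.62, adjusted p = 0.00713 and 7.88e-04, limma). Lpl did not pass between hairpins (0.17 and -0.10, adjusted p = 0.0684 and 0.253, limma). The list of 14 neutrophil, dendritic and lymphoid markers summed to 22.6 to 28.2 RPKM in NCsh and 11.7 to 15.7 RPKM in TMBIM6sh libraries. Nearly all of that was S100a8 (log2 -0.86 and -0.85 between hairpins, adjusted p = 0.00351 and 0.00326, limma), with S100a9 at most at 0.146 RPKM. Its part in the hairpin values below was not tested. In bulk samples fewer cells with a transcript and less transcript per cell cannot be told apart.

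Cav2 was the member with the largest difference between hairpins. Without RANKL it was at 52.2 and 53.0 RPKM in NCsh libraries and at 15.8 and 15.6 RPKM in TMBIM6sh libraries. With RANKL it was at 50.7 and 55.2 against 12.3 and 14.3 RPKM. All 4 TMBIM6sh libraries thus stood below all 4 NCsh libraries, at a distance far beyond that of duplicates. For the libraries without RANKL this restates the low value known when Cav2 was picked. For how many of all genes groups separate without overlap was not counted, here or for the other members. The means without RANKL were 52.6 ± 0.545 and 15.7 ± 0.152 RPKM (SD, n = 2), a ratio of 3.36 and a log2 difference of -1.69 (SE 0.0762, with the log2 of RPKM + 1 used here and below). With RANKL the means were 53.0 ± 3.17 and 13.3 ± 1.36 RPKM (SD, n = 2), a ratio of 3.98, and Cav2 fell by 1.92 on the log2 scale (SE 0.0762, adjusted p = 1.05e-06, limma). In that comparison 1 of the 11040 genes tested had a lower value than Cav2, the hairpin target Tmbim6. Without RANKL 4 had, a place that the pick of Cav2 already reflects.

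With RANKL Cav2 did not pass in either hairpin state. In NCsh libraries the log2 difference was 0.01 (95% interval -0.16 to 0.18, adjusted p = 0.951, limma). In TMBIM6sh libraries both RANKL libraries were below both others, with a log2 difference of -0.22 (interval -0.39 to -0.05, adjusted p = 0.081, limma), which did not pass. It passed after median-ratio scaling of the libraries (adjusted p = 0.0356) and without TMBIM6sh RANKL library 2 (adjusted p = 0.0376).

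Cav1 showed the opposite arrangement. Its levels were 8.85 and 10.4 RPKM in NCsh libraries and 9.21 and 9.11 RPKM in TMBIM6sh libraries without RANKL, and 18.1 and 16.6 RPKM and 16.4 and 15.9 RPKM with RANKL. Every library with RANKL was above every library without, while the hairpin groups overlapped without RANKL, and with RANKL both TMBIM6sh libraries lay just below both NCsh libraries. In NCsh libraries Cav1 rose with RANKL 1.80-fold, the mean moving from 9.63 ± 1.09 to 17.3 ± 1.04 RPKM (SD, n = 2). The log2 difference was 0.79 with an SE of 0.0835 (adjusted p = 4.29e-04, limma). In TMBIM6sh libraries it rose from 9.16 ± 0.0686 to 16.2 ± 0.38 RPKM (SD, n = 2, ratio 1.77, log2 0.76, adjusted p = 3.22e-04, limma). The difference of these responses was -0.03 on the log2 scale (interval -0.30 to 0.23, adjusted p = 0.96, limma). Between hairpins Cav1 differed by -0.06 without RANKL (interval -0.25 to 0.13) and by -0.09 with RANKL (interval -0.28 to 0.09, adjusted p = 0.435, limma). The interval with RANKL does not reach the difference that Cav2 showed.

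**Figure D1:**
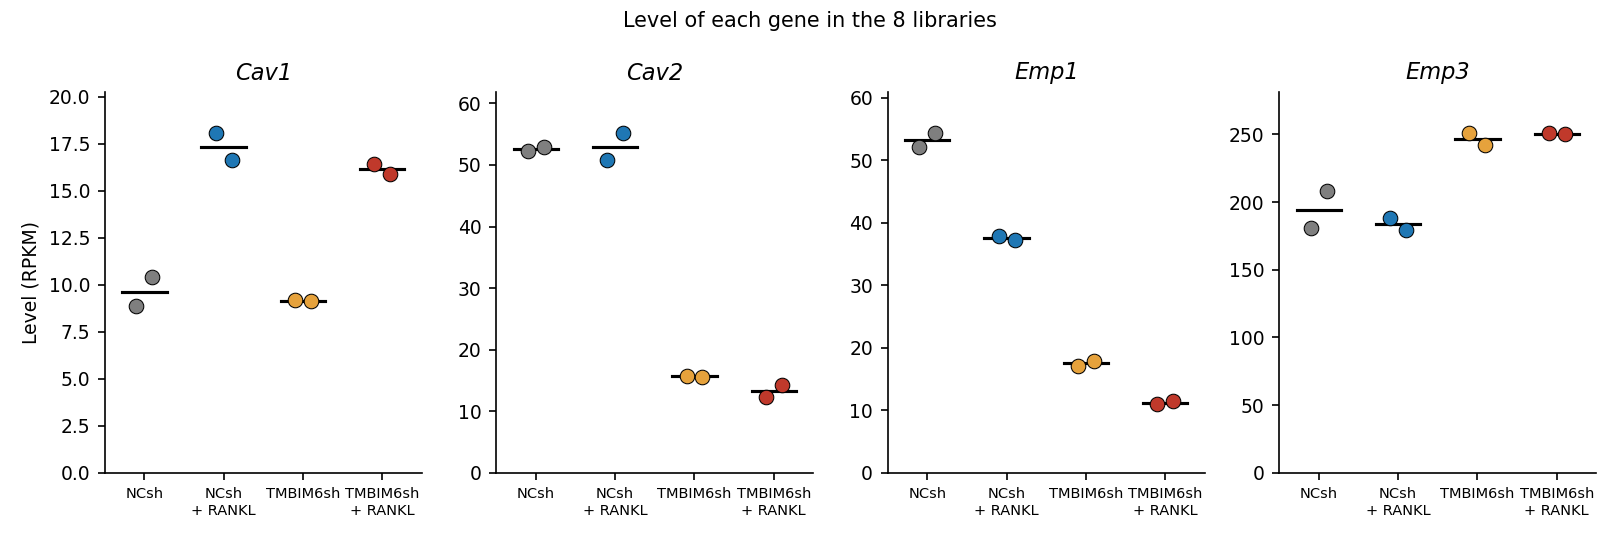
Levels in RPKM (vertical axes, from 0, a separate scale for each gene) of the 4 genes in the 8 libraries. Each point is 1 library and each horizontal line the mean of 2. Cav1 separates by RANKL in both hairpin states, Cav2 and Emp3 by hairpin in both RANKL states, and Emp1 by both. Cav1 also separates by hairpin with RANKL only, and Cav2 by RANKL in TMBIM6sh libraries only.

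The balance of the neighbouring caveolin genes therefore differed in each group. RPKM is a level per annotated exon length, so the genes can be set against each other within a library, though only roughly. Other effects of a gene's sequence or isoforms on its tags were not measured. Cav2 was 5.9 and 5.09 times the level of Cav1 in NCsh libraries without RANKL and 2.81 and 3.33 times with RANKL. In TMBIM6sh libraries the ratio was 1.71 in both libraries without RANKL. With RANKL it was 0.751 and 0.898, and Cav1 then had the higher RPKM of the pair. The 4 groups did not overlap in this ratio. Without RANKL its difference between hairpins largely restates the low Cav2 value known when the members were picked. For how many pairs of genes such a ratio separates the groups was not counted.

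No other tested gene near the pair had a hairpin difference as low as that of Cav2. Of all genes tested, 4 were lower than Cav2 without RANKL and 1 with RANKL. That no neighbour was as low was thus nearly fixed in advance and does not single out the region. Within 500 kb of Cav2 8 genes are listed, of which 6 were tested, Cav1 among them. Between hairpins 1 was higher and 1 lower in each RANKL state. The shares of all genes were 10.4% higher and 13.8% lower without RANKL, and 8.93% and 19.7% with RANKL. With RANKL 2 rose and 0 fell in each hairpin state, where 11.0% and 8.53% of all genes rose. Tes, a focal adhesion protein gene 175 kb before Cav2, was higher in TMBIM6sh libraries, at 38.3 ± 1.65 against 23.1 ± 0.588 RPKM without RANKL (SD, n = 2, log2 0.70, adjusted p = 3.96e-04, limma) and at 34.0 against 21.9 RPKM with RANKL (log2 0.62, adjusted p = 6.98e-04). Tfec, a transcription factor of the MITF family 383 kb before Cav2, was lower, by -0.54 and -0.97 on the log2 scale (adjusted p = 0.0137 and 5.49e-04, limma), at 1.77 to 5.99 RPKM as group means. On the other side Met, the hepatocyte growth factor receptor, Capza2, an actin capping subunit, and St7 had hairpin differences of -0.19 to 0.22 and did not pass. With RANKL in NCsh libraries Tfec rose as well (log2 0.79, adjusted p = 0.00332, limma), and Tes, Met, Capza2 and St7 did not pass. In TMBIM6sh libraries St7 rose (0.31, adjusted p = 0.0488, limma), and Tfec, with 0.36 (adjusted p = 0.093), did not pass.

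**Figure D2:**
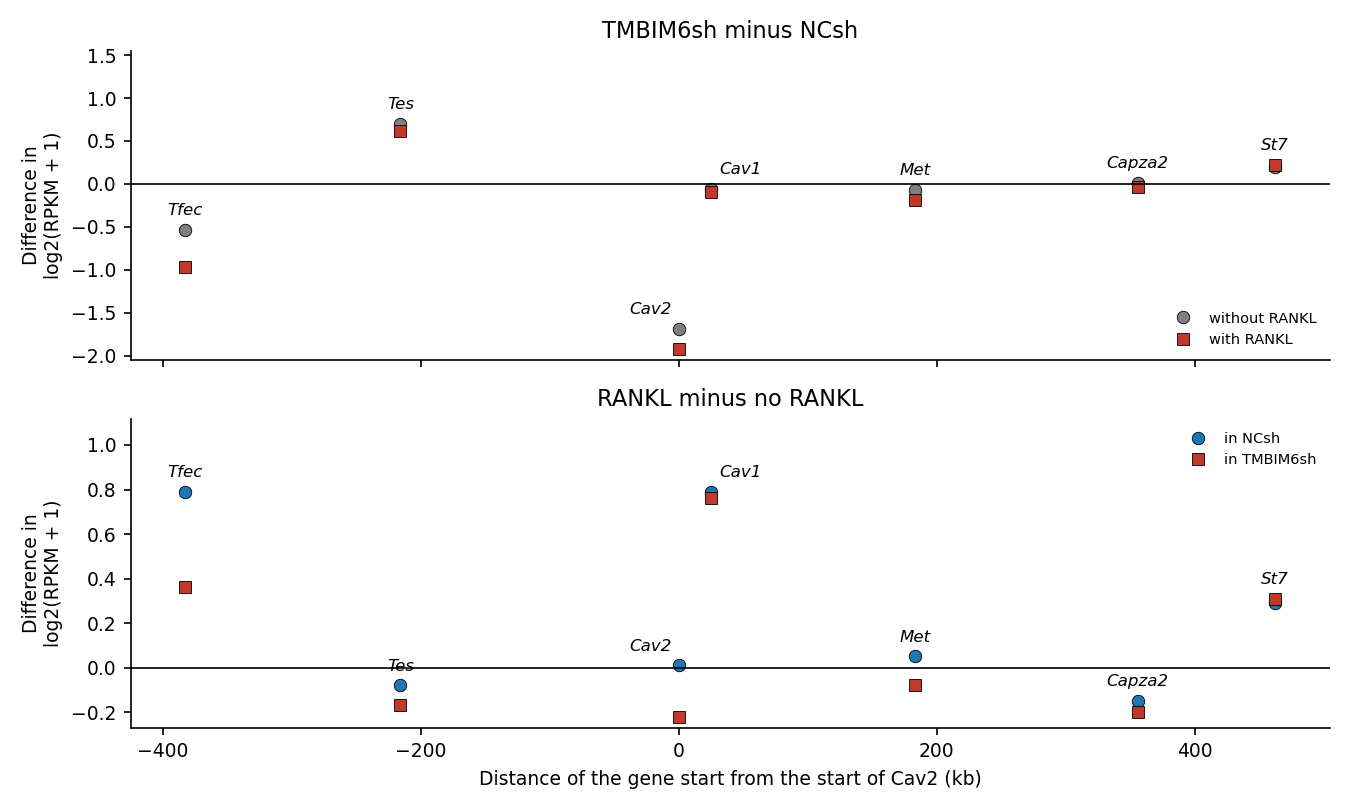
Differences in log2(RPKM + 1) (vertical axes) of Cav2 and the 6 tested genes within 500 kb, by the distance of each gene start from that of Cav2 in kb (horizontal axis). The upper panel shows TMBIM6sh minus NCsh without (circles) and with RANKL (squares), the lower panel RANKL minus no RANKL in NCsh (circles) and TMBIM6sh libraries (squares). Cav2, picked with its low value known, lies below -1 in the upper panel, and Cav1 lies at 0.79 and 0.76 in the lower.

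Emp1 was lower with the TMBIM6 hairpin and with RANKL. In NCsh libraries it was at 52.2 and 54.4 RPKM without RANKL and at 37.8 and 37.2 RPKM with RANKL. In TMBIM6sh libraries it was at 17.0 and 17.9 RPKM and at 11.0 and 11.4 RPKM. The 4 groups did not overlap, and each step of the order, from NCsh to NCsh with RANKL, TMBIM6sh and TMBIM6sh with RANKL, exceeded the distance between duplicates. The means between hairpins were 53.3 ± 1.55 and 17.5 ± 0.634 RPKM without RANKL (SD, n = 2, ratio 3.05, log2 -1.55, SE 0.061). With RANKL they were 37.5 ± 0.44 and 11.2 ± 0.33 RPKM (SD, n = 2, ratio 3.35), and Emp1 fell by 1.66 on the log2 scale (SE 0.061, adjusted p = 8.47e-07, limma), with 7 of all genes tested lower.

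With RANKL Emp1 fell by 0.49 in NCsh libraries (SE 0.061, adjusted p = 9.80e-04, limma) and by 0.60 in TMBIM6sh libraries (adjusted p = 2.18e-04, limma), to 70.4% and 64.1% of the level without RANKL. The responses differed by -0.10 (interval -0.30 to 0.09, adjusted p = 0.779, limma). Within 500 kb of Emp1 6 of 15 genes were tested. Between hairpins 0 were higher and 2 lower without RANKL, and 1 was higher and 2 lower with RANKL. The shares of all genes were 10.4% higher and 13.8% lower without RANKL, and 8.93% and 19.7% with RANKL. With RANKL 1 rose and 0 fell in each hairpin state, where 11.0% and 8.53% of all genes rose. Gprc5a, a G protein-coupled receptor gene 278 kb away, was lower with the hairpin (log2 -0.97 without and -0.69 with RANKL, adjusted p = 0.00109 and 0.00578, limma), from 2.21 to 0.636 RPKM and from 1.80 to 0.736 RPKM. Hebp1, a heme-binding protein gene 195 kb away, rose with RANKL in both hairpin states (log2 0.77 and 0.99, adjusted p = 0.00366 and 7.66e-04, limma), while Emp1 fell. Between hairpins Hebp1 was lower without RANKL (-0.59, adjusted p = 0.00927, limma), the direction of Emp1, and with RANKL its difference was -0.36 (adjusted p = 0.0594). Ddx47, 339 kb away, went the other way with RANKL, higher by 0.25 with the TMBIM6 hairpin (adjusted p = 0.0493, limma).

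Emp3, the most abundant of the 4 genes, was higher with the TMBIM6 hairpin. It was at 181 and 208 RPKM in NCsh and 251 and 243 RPKM in TMBIM6sh libraries without RANKL, and at 188 and 179 against 251 and 250 RPKM with RANKL. The TMBIM6sh libraries were all above the NCsh libraries, and the NCsh duplicates without RANKL were the farthest apart. Without RANKL the ratio of means was 1.27, from 194 ± 19.4 to 247 ± 6.19 RPKM (SD, n = 2, log2 0.35, SE 0.0744). With RANKL it was 1.36, with means of 184 ± 6.26 and 250 ± 0.502 RPKM (SD, n = 2), and Emp3 was higher by 0.44 on the log2 scale (SE 0.0744, adjusted p = 0.00206, limma). RANKL gave log2 differences of -0.08 (interval -0.24 to 0.09, adjusted p = 0.543, limma) and 0.02 (interval -0.15 to 0.19, adjusted p = 0.899, limma), and the groups with and without it overlapped in both hairpin states. Tmem143, whose 3′ end faces that of Emp3 at 609 bases, had hairpin differences of 0.06 and 0.09 (adjusted p = 0.71 and 0.535, limma). Within 500 kb of Emp3 16 of 48 genes were tested. With RANKL 5 rose and 0 fell in NCsh libraries and 3 rose and 0 fell in TMBIM6sh libraries. Of all genes 11.0% and 8.53% rose and 3.98% and 6.89% fell. Between hairpins 2 were higher and 2 lower without RANKL and 3 higher and 2 lower with RANKL. Of all genes 10.4% were higher and 13.8% lower without RANKL, and 8.93% and 19.7% with RANKL. Among the nearest, Grwd1 (0.38, adjusted p = 0.0105, limma) and Nomo1 (0.26, adjusted p = 0.0336) were higher with the TMBIM6 hairpin when RANKL was present. Kdelr1 was lower with that hairpin without RANKL (-0.31, adjusted p = 0.0316, limma).

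**Figure D3:**
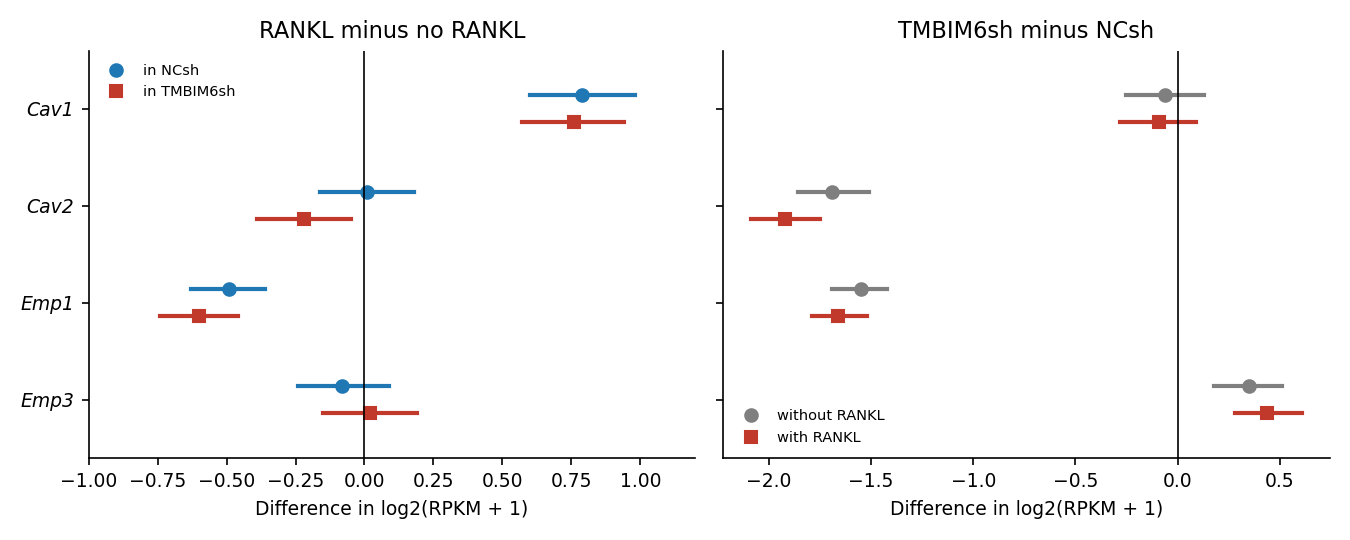
Differences in log2(RPKM + 1) (horizontal axes) for RANKL minus no RANKL (left) and TMBIM6sh minus NCsh (right), with 95% intervals from the model as bars. Bars of the hairpin comparison without RANKL describe values known in part when the members were picked and are no test. Cav1 lies at 0.79 and 0.76 in the left panel and at -0.06 and -0.09 in the right. In the right panel Cav2 lies at -1.69 and -1.92 and Emp3 at 0.35 and 0.44, and Emp1 lies below 0 in all 4 comparisons. The left-hand bar of Cav2 in TMBIM6sh libraries (-0.39 to -0.05) also lies below 0, though Cav2 did not pass there after adjustment.

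Of the 4 genes 1 rose (Cav1) and 1 fell (Emp1) with RANKL in NCsh libraries, where 15.0% of the genes tested passed, 11.0% higher and 3.98% lower. The same 2 members passed in TMBIM6sh libraries, where 15.4% did, 8.53% higher and 6.89% lower. Between hairpins with RANKL 2 fell (Cav2 and Emp1) and 1 rose (Emp3), where 28.6% of all genes passed, 19.7% lower and 8.93% higher, which is 2171 and 986 genes (1725 and 1502 after median-ratio scaling). In NCsh libraries the RANKL split was 1214 higher and 439 lower, and 814 and 806 after that scaling. Without RANKL 24.2% of all genes passed between hairpins. The test of the difference between RANKL responses passed for 0 of the 4 with limma, and for 1 of all genes (0.00906%). At an unadjusted p under 0.05 it passed for 0 of the 4 (the smallest was 0.0578, for Cav2) and for 857 of the 11040 genes. Comparisons that share libraries are not independent of each other.

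In the rest of the EMP family Emp2 and Pmp22 were tested. Of all genes 15.0% and 15.4% passed with RANKL in NCsh and TMBIM6sh libraries. Between hairpins 24.2% and 28.6% passed without and with RANKL, and for the difference of responses 0.00906%. Emp2 was at 4.98 to 6.2 RPKM in the 8 libraries and passed in 0 of the 5 comparisons, with hairpin differences of -0.00 and 0.17 (adjusted p = 0.984 and 0.201, limma). Pmp22, best known from the myelin of peripheral nerves, was at 71.7 to 89.3 RPKM and fell with RANKL in TMBIM6sh libraries only by this test (log2 -0.24, adjusted p = 0.0369, limma). The difference to NCsh libraries (-0.18, adjusted p = 0.659) did not pass. Perp and Tmem47 stayed at or below 0.148 and 0.069 RPKM, and Lim2 and Nkg7 were listed at 0, so these 4 were not tested.

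Of the further caveola components, muscle caveolin Cav3 was listed at 0. Cavin1, the cavin that all caveolae need, was at 3.53 to 4.57 RPKM and passed in 0 of the 5 comparisons. Cavin2, Cavin3 and Cavin4 reached at most 0.023, 0.665 and 0.258 RPKM and were not tested. Among 10 proteins that bend membranes at the caveola neck or cut vesicles 5 were tested. With RANKL 1 rose and 1 fell in NCsh libraries and 1 rose and 2 fell in TMBIM6sh libraries, and between hairpins 2 were higher and 1 lower without RANKL and 1 higher with RANKL. Of all genes 15.0%, 15.4%, 24.2% and 28.6% passed in these comparisons. Ehd1, an ATPase of endocytic recycling, rose with RANKL from 99.3 ± 1.27 to 155 ± 0.565 RPKM in NCsh libraries (SD, n = 2, log2 0.64, adjusted p = 1.72e-04, limma) and from 82.2 to 149 RPKM in TMBIM6sh libraries (log2 0.85, adjusted p = 2.31e-05). Its relative Ehd4 fell by 0.34 and 0.39 (adjusted p = 0.00463 and 0.00164, limma). Between hairpins Pacsin2, which curves the membrane at caveolae, was higher by 0.27 without and 0.29 with RANKL (adjusted p = 0.0108 and 0.00683, limma). Dnm2, the dynamin that cuts vesicles free, was higher by 0.23 without RANKL (adjusted p = 0.0157), and Ehd1 was lower by -0.27 (adjusted p = 0.00746).

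**Figure D4:**
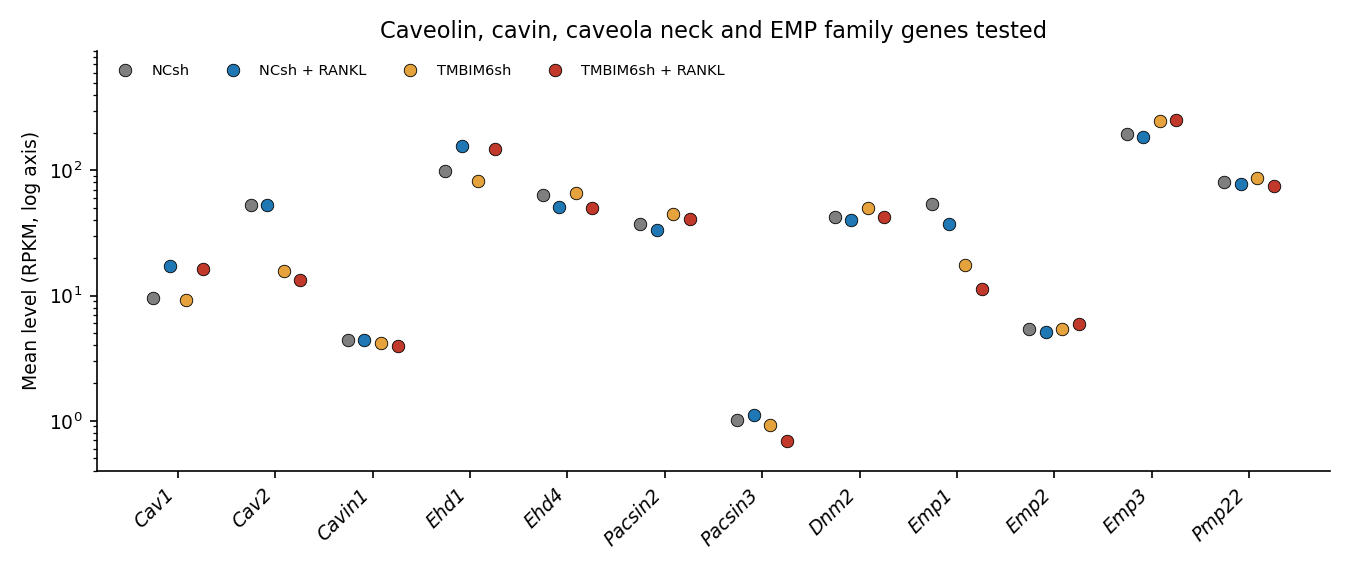
Mean level in RPKM (vertical axis, log scale) of the tested caveolin, cavin, caveola neck and EMP family genes in the 4 groups, 1 point for each group mean of 2 libraries. Cav2 and Emp1 are lower in both TMBIM6sh groups, while Cavin1 stays between 3.94 and 4.44 RPKM and Emp2 between 5.16 and 5.93 RPKM.

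Flotillins and stomatins organise other cholesterol-rich membrane patches. Of 8 such genes 7 were tested. Between hairpins 2 were lower and 1 higher without RANKL, and 3 lower and 1 higher with RANKL, with medians of -0.18 and -0.29 beside -0.02 and -0.07 for all genes (13.8% and 19.7% of all genes were called lower, 10.4% and 8.93% higher). Flot1 was lower with RANKL in each hairpin state and with the TMBIM6 hairpin in each RANKL state, with means of 25.8 and 20.5 RPKM in NCsh and 20.0 and 15.0 RPKM in TMBIM6sh libraries without and with RANKL (log2 -0.31 and -0.40 for RANKL, -0.35 and -0.43 for the hairpin, adjusted p = 0.00379 to 0.0316, limma). Erlin1, a cholesterol-binding protein of the endoplasmic reticulum, went the other way, from 8.93 to 16.7 RPKM (log2 0.83, adjusted p = 1.68e-04, limma) and from 9.76 to 19.4 RPKM with RANKL (log2 0.92, adjusted p = 8.40e-05), and its partner Erlin2 was lower by -0.27 and -0.45.

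Tetraspanins, which form membrane webs of their own, went both ways. Of 18 genes 15 were tested, and between hairpins 1 was higher and 5 lower without RANKL and 2 higher and 6 lower with RANKL, with medians of -0.07 and -0.14. Of all genes 10.4% were higher and 13.8% lower without RANKL, and 8.93% and 19.7% with RANKL. Cd151, a partner of laminin-binding integrins, was higher at 19.9 against 11.4 RPKM without RANKL (log2 0.76, adjusted p = 3.81e-04, limma). Cd82 was lower (log2 -0.40, adjusted p = 0.00128), as were Tspan13 (-0.76, adjusted p = 0.00436) and, with RANKL, Tspan14 (-0.38, adjusted p = 0.0014) and Cd53 (-0.26, adjusted p = 0.00893). With RANKL 2 rose and 2 fell in NCsh libraries and 3 rose and 3 fell in TMBIM6sh libraries, beside 11.0% and 3.98%, and 8.53% and 6.89%, of all genes. Cd9, a tetraspanin tied to cell fusion, fell by 0.41 and 0.70 (adjusted p = 0.0081 and 3.56e-04, limma), and Cd82 rose by 0.36 and 0.54.

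Of 14 known partners of caveolins and EMPs 11 were tested. With RANKL 1 rose and 2 fell in NCsh libraries and 1 rose and 4 fell in TMBIM6sh libraries, and between hairpins 4 were higher and 0 lower without RANKL and 1 higher and 1 lower with RANKL. Of all genes 15.0%, 15.4%, 24.2% and 28.6% passed in these comparisons, the hairpin ones being 10.4% higher and 13.8% lower without RANKL and 8.93% and 19.7% with RANKL. Src, the kinase that phosphorylates caveolin-1, rose with RANKL like Cav1, by 0.67 in both hairpin states (adjusted p = 0.00116 and 7.66e-04, limma), and did not pass between hairpins (0.20 and 0.20, adjusted p = 0.132 and 0.112). The G protein subunit Gnai2 was higher with the TMBIM6 hairpin, at 439 against 276 RPKM without RANKL and 402 against 252 RPKM with RANKL (log2 0.67 in each, adjusted p = 1.49e-04 and 1.26e-04, limma). Itga6, an integrin chain, fell with RANKL by 0.50 and 0.74 (adjusted p = 0.00401 and 3.73e-04, limma). P2rx7 was at 11.1, 9.76, 9.60 and 7.97 RPKM as the means of NCsh without and with RANKL and TMBIM6sh without and with RANKL, and passed in 0 of the 5 comparisons.

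The genes most like each member were ranked by the Pearson correlation of log2 values over the 8 libraries, among tested genes that spanned at least 1 log2 unit. The 8 points share the 4 groups, so a high value restates a common group pattern. Closest to Cav2 were Atp6v1a, a proton pump subunit (r = 0.998, means of 134 and 131 RPKM in NCsh and 71.7 and 68.4 RPKM in TMBIM6sh libraries without and with RANKL), the hairpin target Tmbim6 (0.996) and Snx9, a sorting nexin of endocytosis (0.994). Closest to Cav1 were Uck2, a uridine-cytidine kinase (0.989), Icam1, an adhesion ligand of leukocyte integrins (0.985, 40.5 to 90.2 RPKM with RANKL in NCsh libraries and 39.2 to 81.1 RPKM in TMBIM6sh libraries), and the phosphate transporter Slc20a1 (0.984). Closest to Emp1 were Sema3f, a secreted semaphorin (0.995), the glycosyltransferase Gcnt1 (0.995, 13.5, 10.2, 4.33 and 2.83 RPKM in the order of groups used for P2rx7) and the leukotriene receptor Cysltr1 (0.994). Closest to Emp3 were Praf2 (0.979), Btbd2 (0.978) and BC002163 (0.974). None of these lies on chromosome 6 or 7. By rank correlation 0 of the 3 genes were shared with this list for Cav1, Cav2 and Emp1, and 2 for Emp3.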

How the data were processed

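RNA libraries of the 8 samples were prepared by Illumina protocols, per the labels. Per the file header, the authors counted tags over RefSeq exons on both strands with HOMER in mm10, condensed isoforms to 1 entry per gene and deposited RPKM values. Its columns are headed FPKM although HOMER was told to give RPKM. HISAT2 and DESeq2 also appear in the submitters' processing notes, with no version. The deposited values step by whole tags (100% of 4440 to 4617 values per library within 0.1 tags), which gave the tags per gene and library. For the comparisons, log2(RPKM + 1) of the 11040 genes that reached 1 RPKM in 2 or more libraries was fitted with limma 3.58.1 in R 4.3.3, with 1 mean per group, an intensity trend, 4 residual and 5.54 prior degrees of freedom, and Benjamini-Hochberg adjustment over all genes (threshold 0.05). The log2 scale with a pseudocount of 1 understates changes of low genes. An exact two-sided permutation test of 2 libraries against 2 cannot go below p = 0.333 and was not used. The fit was tested on simulated data. Members and gene lists were chosen with earlier results of these data known. Named genes are the members, Tmbim6, the caveolin, cavin and EMP lists, up to 3 called genes per further list and comparison (selected examples are printed), up to 4 nearest tested genes within 500 kb on each side, and the 3 genes most like each member. Some listed genes that were not called are also named, for their level or as not passing. Marker lists covered macrophages, stromal and smooth muscle cells, endothelium, adipocytes and epithelium, and neutrophils, dendritic cells and lymphocytes. Alternatives were pseudocounts of 0.1 and 5, no filter, a filter at 5 RPKM, median-ratio scaling, each comparison's own 4 libraries, a replicate block and leaving out each library.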

Additional observations from a re-analysis of the deposited data

How the results depend on the processing

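The calls for Cav1, Emp1 and Emp3 kept their direction and side of the threshold in every alternative run, apart from small values that did not pass in the first place. Cav2 with RANKL in TMBIM6sh libraries passed after median-ratio scaling (-0.24), and leaving out single libraries gave -0.32 to -0.13. Values near 0 changed sign with median-ratio scaling for Cav2 with RANKL in NCsh (-0.06), Emp3 with RANKL in TMBIM6sh (-0.0023) and the Cav1 difference of responses (0.02). When 1 library was left out, these ran from -0.05 to 0.07, from -0.005 to 0.05 and from -0.14 to 0.07. Emp3 with RANKL in NCsh ran from -0.18 to 0.03, the Emp3 difference of responses from -0.0056 to 0.20, and Cav1 between hairpins without RANKL from -0.17 to 0.04. The cause was not tested. Pseudocounts of 0.1 and 5 moved the hairpin values without RANKL to -1.74 and -1.48 for Cav2 and to -1.60 and -1.37 for Emp1. Without 1 library the number of genes called ran from 709 to 1523 for RANKL in NCsh (lowest without NCsh RANKL library 1, 904 without library 2), from 846 to 2055 for RANKL in TMBIM6sh (846 to 1062 when the library left out was a TMBIM6sh one), from 1420 to 2527 for the hairpins without RANKL (1420 and 1425 without a TMBIM6sh library of that comparison) and from 1884 to 3561 for the hairpins with RANKL (1884 and 2084 without NCsh RANKL library 1 or 2, 2074 without TMBIM6sh RANKL library 1). A lone library is then assumed to vary like the other groups. RANKL in NCsh gave 1020 with its own 4 libraries. The difference of responses was called for 1 gene, the short Snord104, named after its value was seen, and for 2 genes with a pseudocount of 5, 8 with no filter, 0 with the filter at 5 RPKM and 0 to 2 without 1 library. A replicate block gave 1608, 1670, 2654, 3128 and 1 genes called and changed no member's call. Replicate numbers are not stated to pair libraries, and deviations of same-numbered libraries correlated at -0.0651 to 0.0625 over genes. A count test on recovered tags was not run. The members' values rest on 591 tags or more per library and on 2 libraries per group.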
